A study of Mus musculus with 8 samples.

Results

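The 9 genes described here encode enzymes that break down phenylalanine, tyrosine and histidine: Qdpr, Tat, Hpd, Hgd, Gstz1 and Fah for the aromatic amino acids, and Hal, Uroc1 and Ftcd for histidine. They were chosen by name as enzymes of these routes, and all 9 were among the 19937 genes tested, each through 1 probe set. Expression was measured in 4 c-MYC liver tumours and in 4 control livers of mice, with 1 array per sample. The tumours arose in mice in which human c-MYC is driven in the liver from a CEBPB-LAP promoter under doxycycline control, and they were collected at the humane endpoint; the controls were normal livers of matched mice. The sources used here give no strain, age, sex or doxycycline schedule, and do not say whether the controls carried part of the transgene. Values are log2 expression after RMA, so a difference of 1 is a 2-fold difference, and they are compared between groups for the same probe set only.

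Liver is the main site where surplus tyrosine and histidine are burned. Tyrosine is transaminated, oxidised to homogentisate, opened to maleylacetoacetate, isomerised and finally split into fumarate and acetoacetate, which feed energy metabolism. Histidine is deaminated to urocanate, hydrated, and passed on until its formimino group is handed to tetrahydrofolate, which ties this route to the folate pool. In the mouse liver lobule the first histidine enzymes are best known from the periportal zone.

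The promoters of 4 of the genes are shown because these genes mark the extremes of the response described next: Tat and Hal, the entry enzymes of the tyrosine and histidine routes, fell most within their routes, and Qdpr and Ftcd were the members that did not pass the test. Each run gives the 250 bases before and the 50 bases from the annotated start, 5′ to 3′ on the gene's strand, from RefSeq on GRCm38.p6. Capitals mark CCAAT boxes (CCAAT or ATTGG) and TATA boxes (TATAAA or TTTATA). The windows are chr8:109990186-109990485 (plus strand) for Tat, chr5:45450180-45450479 (minus strand) for Qdpr, chr10:93488518-93488817 (plus strand) for Hal and chr10:76575398-76575697 (plus strand) for Ftcd.
Tat: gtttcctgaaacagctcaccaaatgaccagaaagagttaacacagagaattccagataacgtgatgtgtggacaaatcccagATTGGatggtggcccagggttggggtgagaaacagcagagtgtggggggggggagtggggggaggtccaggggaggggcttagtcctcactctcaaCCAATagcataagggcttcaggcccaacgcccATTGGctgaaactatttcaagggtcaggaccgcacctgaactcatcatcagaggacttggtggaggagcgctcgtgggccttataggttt
Qdpr: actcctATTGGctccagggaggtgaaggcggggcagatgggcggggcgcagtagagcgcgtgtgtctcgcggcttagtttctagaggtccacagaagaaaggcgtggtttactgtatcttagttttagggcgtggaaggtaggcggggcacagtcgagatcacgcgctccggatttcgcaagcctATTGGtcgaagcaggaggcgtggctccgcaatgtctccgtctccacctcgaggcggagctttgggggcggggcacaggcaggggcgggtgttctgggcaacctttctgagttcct
Hal: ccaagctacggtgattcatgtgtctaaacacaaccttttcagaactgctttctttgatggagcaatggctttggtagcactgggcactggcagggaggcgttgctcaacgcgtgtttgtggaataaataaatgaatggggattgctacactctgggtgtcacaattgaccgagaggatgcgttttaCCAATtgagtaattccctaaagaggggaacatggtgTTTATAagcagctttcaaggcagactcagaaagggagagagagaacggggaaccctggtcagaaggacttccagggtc
Ftcd: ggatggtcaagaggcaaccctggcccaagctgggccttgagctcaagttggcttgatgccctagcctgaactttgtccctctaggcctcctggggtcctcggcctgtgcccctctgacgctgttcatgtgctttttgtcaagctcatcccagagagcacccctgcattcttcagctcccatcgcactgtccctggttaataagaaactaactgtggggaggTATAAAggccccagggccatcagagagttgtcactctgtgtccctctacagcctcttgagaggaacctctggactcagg

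All 9 genes had an entry in the promoter table, Gstz1 with 2 starts, which gave 10 windows. The CCAAT box lay in 7 of the 10 windows, those of Qdpr, Tat, Hgd, Hal, Uroc1 and both of Gstz1, and in 37.4% of all 32851 promoters. Tat held 3 of them, beginning 168, 72 and 40 bases before the start. A TATA box began 28 bases before the start in Hal and 29 bases before it in Ftcd, and another 139 bases before it in Hgd, while 13.6% of all promoters had one. Qdpr, unlike the other 3 windows shown, was rich in CG dinucleotides, with 23 against 5 in Tat, 7 in Hal and 3 in Ftcd and a median of 7 over all promoters. Fah had 19 and Uroc1 had 0.

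Other motifs were searched on both strands in the same windows. The E-box CACGTG (7.15% of all promoters), the full CRE TGACGTCA (1.79%), the FOXA site TGTTTAC (3.65%), the C/EBP palindrome TTGCGCAA (0.183%) and the HNF4 site CAAAGTCCA (0.475%) were in none of the 10. The CRE half-site TGACG (20.8%), which is part of the full CRE, was in 1 window of Gstz1 and in Ftcd. The HNF1 half-site GTTAAT (7.10%) was in Ftcd, 56 bases before the start. The looser C/EBP site TTGCNNAA (10.8%), which includes the palindrome, was in Qdpr, Hgd and Hal, and the glucocorticoid half-site AGAACA (19.0%) was in Qdpr. These are letter matches in windows of 300 bases and describe the sequences only.

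The arrays had similar medians, between 6.33 and 6.44, and interquartile ranges from 2.04 to 2.42. Control liver 1 stood apart in acute phase genes, for example Saa1 at 12.44 against 6.28 to 8.06 in the other controls and 3.67 to 4.01 in the tumours. Control liver 3 read 11.89 for Xist and 3.46 for Y-linked Eif2s3y, while the other 7 arrays read 4.86 to 7.12 and 8.56 to 9.37, so its sex-linked genes read opposite to those of the rest. The tissue label was checked with 8 hepatocyte markers, whose mean lay between 11.38 and 11.93 in tumours and between 12.23 and 12.47 in controls; all 8 were lower in tumours, with a median log2 change of -0.53. In whole tissue, fewer hepatocytes and less RNA per hepatocyte cannot be told apart. Of other cell types, 5 of 7 sinusoidal endothelial markers were lower (array means 6.48 to 6.82 in tumours and 7.35 to 7.98 in controls). Of 7 stellate cell and fibroblast markers 4 were lower (6.85 to 7.33 in tumours and 7.71 to 7.97 in controls). Macrophage markers were higher for 2 and lower for 2 of 8 (7.61 to 8.18 in tumours and 7.601 to 8.48 in controls), and all 6 lymphocyte markers were not called (5.94 to 6.30 in tumours and 5.92 to 6.59 in controls). Of 5 bile duct markers 1 was higher and 1 lower (6.04 to 6.41 in tumours and 6.00 to 6.13 in controls). All 6 division markers were higher (8.98 to 9.53 in tumours and 5.49 to 6.12 in controls). Over all genes tested, 12.7% were called lower and 16.2% higher. The part of cell composition in the results below was not tested.

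Of the 9 enzymes, 7 were lower in tumours and 2, Qdpr and Ftcd, were not called (limma, adjusted p under 0.05 over all genes tested, a call made for 12.7% of all genes in the lower direction). Limma called 0 of the 9 higher, also at an unadjusted p under 0.05, while 16.2% of all genes were called higher. The same 7 fell by at least 2-fold, which 4.68% of all genes did, and in the same 7 all 4 tumours lay below all 4 controls, as in 13.9% of all genes. The median log2 change of the 9 was -1.31, against -0.04 over all genes tested. Since the enzymes were chosen with earlier results of these data known, these counts describe them and are not a test of the group.

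**Figure D1:**
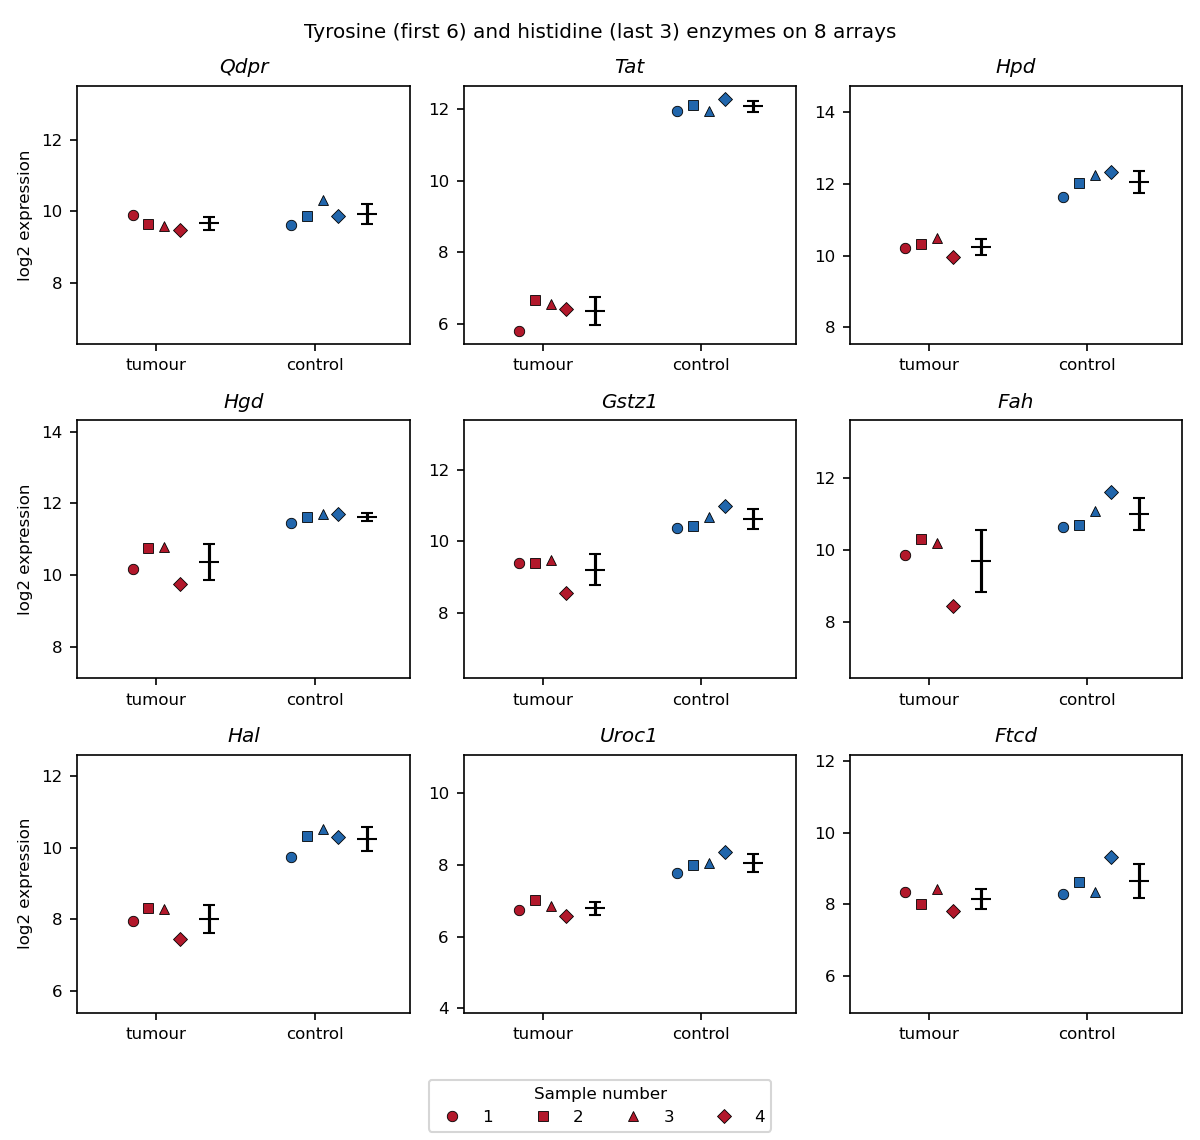
Log2 expression (vertical axis, the same span of units in each panel) of the 9 enzymes on each array, tumours left and controls right; symbols give the sample number and bars the mean ± SD of 4 arrays. Tat lies between 5.81 and 6.67 in tumours and between 11.95 and 12.29 in controls, while the groups overlap for Qdpr and Ftcd.

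Tat encodes tyrosine aminotransferase, the first and rate-limiting enzyme of tyrosine breakdown, and a classical glucocorticoid-inducible gene of the adult hepatocyte. It read 5.81, 6.67, 6.56 and 6.42 in tumours 1 to 4, against 11.95, 12.12, 11.96 and 12.29 in control livers 1 to 4. The groups were 5.28 log2 units apart at their nearest arrays, many times the spread within either. The mean was 6.37 ± 0.38 in tumours and 12.08 ± 0.16 in controls (SD, n = 4 each), a log2 change of -5.71 (SE 0.18, limma adjusted p = 1.6e-08), or 52.4-fold lower with a 95% interval of 39.9 to 68.9. Ordered by the size of the fall, it ranked 30 among the 19937 genes. The arrays carry no detection call in the deposited table, so whether the tumour values of Tat lie above background was not tested. The same holds for every other gene with low values in a group, and folds of such genes are those of the deposited values.

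Hpd encodes 4-hydroxyphenylpyruvate dioxygenase, which turns the product of Tat into homogentisate. It read 10.21, 10.32, 10.48 and 9.95 in tumours, against 11.64, 12.03, 12.26 and 12.32 in controls. The gap between the groups was 1.16, wider than the range within either. This is a log2 change of -1.82 (SE 0.17, limma adjusted p = 1.6e-05), or 3.54-fold lower.

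Hgd encodes homogentisate dioxygenase, whose loss causes alkaptonuria. It read 10.17, 10.76, 10.78 and 9.74 in tumours, against 11.46, 11.61, 11.69 and 11.69 in controls. The controls lay close together (11.61 ± 0.11), whereas tumours 2 and 3 lay above tumours 1 and 4 (10.36 ± 0.50, SD, n = 4 each). The log2 change was -1.25 (SE 0.21, limma adjusted p = 0.00113).

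Gstz1 encodes maleylacetoacetate isomerase, a glutathione transferase of the zeta class. It read 9.38, 9.40, 9.49 and 8.56 in tumours, against 10.38, 10.43, 10.68 and 10.99 in controls. Tumours 1 to 3 lay close together and tumour 4 was well below them. Its log2 change was -1.41 (SE 0.21, limma adjusted p = 0.000528), or 2.66-fold lower.

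Fah encodes fumarylacetoacetate hydrolase, the last enzyme of the route, whose loss causes hepatorenal tyrosinaemia. It read 9.87, 10.30, 10.20 and 8.42 in tumours, against 10.64, 10.69, 11.08 and 11.62 in controls. The groups did not overlap, but the nearest arrays, tumour 2 and control liver 1, were only 0.34 apart, and tumour 4 alone widened the tumours' SD to 0.87. The log2 change was -1.31 (SE 0.38, limma adjusted p = 0.0264), with an interval from -2.16 to -0.46. This call was lost without control liver 3 (adjusted p = 0.0531) or control liver 4 (0.0687), without control livers 1 and 3 together (0.0690), and with an intensity trend and robust variance (0.0526). Without tumour 4 the change was -0.88 (adjusted p = 0.0203).

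Qdpr encodes quinoid dihydropteridine reductase, which regenerates tetrahydrobiopterin, the cofactor of the aromatic amino acid hydroxylases. It read 9.90, 9.65, 9.60 and 9.49 in tumours, against 9.63, 9.88, 10.31 and 9.86 in controls. The groups overlapped, with tumour 1 above 3 of the controls. The log2 change was -0.26 (SE 0.15, limma adjusted p = 0.249), and its interval from -0.59 to 0.08 leaves room for a fall of up to 1.51-fold but not for a 2-fold one. Without control liver 3, the highest array, the change was -0.13 (adjusted p = 0.547).

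**Figure D2:**
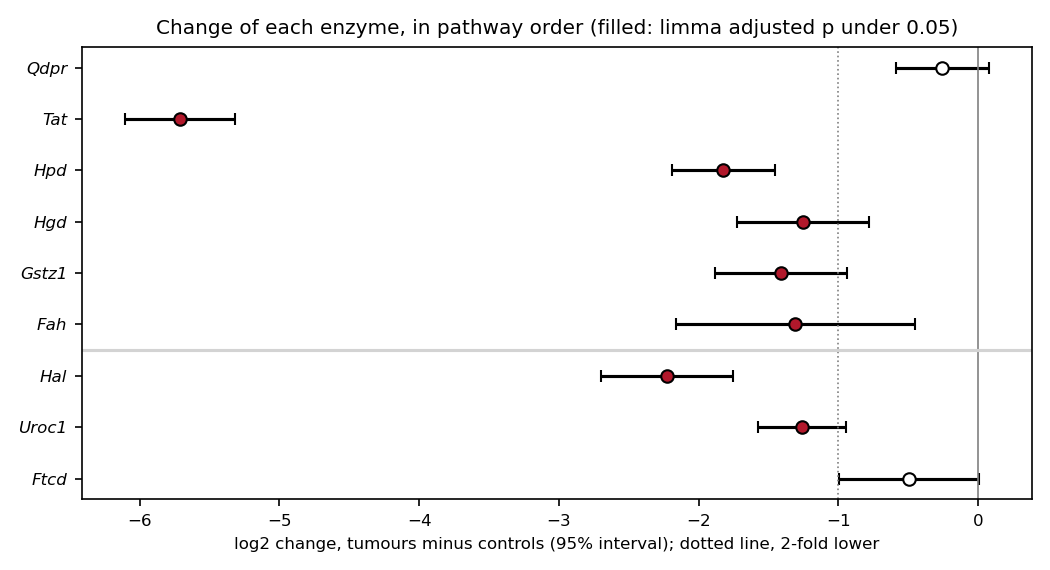
Log2 change (horizontal axis, tumours minus controls) of each enzyme with its 95% interval from limma, in pathway order, tyrosine route above the grey line and histidine route below it; filled points passed an adjusted p of 0.05. Tat stands at -5.71, the other 6 called enzymes between -2.23 and -1.25, and the intervals of Qdpr and Ftcd reach 0.

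Of the histidine members, the entry enzyme fell most. Hal encodes histidine ammonia-lyase, which commits histidine to breakdown by forming urocanate. It read 7.96, 8.31, 8.28 and 7.46 in tumours, against 9.75, 10.33, 10.52 and 10.31 in controls. The gap of 1.44 exceeded the range within either group. The log2 change was -2.23 (SE 0.21, limma adjusted p = 2.4e-05), or 4.68-fold lower with an interval of 3.37 to 6.50.

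Uroc1 encodes urocanate hydratase, the next enzyme. It read 6.73, 7.01, 6.84 and 6.58 in tumours, against 7.78, 8.003, 8.05 and 8.37 in controls. Tumours were tight (6.79 ± 0.18) and all were below every control (8.05 ± 0.25, SD, n = 4 each). Its log2 change was -1.26 (SE 0.14, limma adjusted p = 6.9e-05), or 2.40-fold lower.

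Ftcd encodes formimidoyltransferase cyclodeaminase, which moves the formimino group of the last histidine intermediate to tetrahydrofolate. It read 8.34, 8.02, 8.41 and 7.82 in tumours, against 8.29, 8.61, 8.34 and 9.32 in controls. The groups overlapped, and control liver 4 was well above the other 7 arrays. The log2 change was -0.50 (SE 0.22, limma adjusted p = 0.134), with an interval from -0.996 to 0.0025. Without control liver 4 it was -0.27 (adjusted p = 0.270), and without control livers 1 and 3 together, an alternative chosen after seeing the data, it was -0.82 (adjusted p = 0.0327).

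Members that follow each other in the listed order of a route were set against each other, as the difference of their log2 values within each array. Not all are adjacent steps, since Qdpr regenerates a cofactor and Amdhd1 acts between Uroc1 and Ftcd. The difference cancels a constant offset of each probe set, but not a flattening of values near background. It shows unequal change of the deposited values only. In all, 7 pairs were compared by a two-sided exact permutation test over the 8 arrays, whose smallest possible p is 0.0286. The change of Tat minus that of Qdpr was -5.45 log2 units (pooled SD of the within-array difference 0.45), and that of Hpd minus that of Tat was 3.89 (pooled SD 0.33), each with exact p = 0.0286 and an adjusted p of 0.05 over the 7 pairs. The change of Uroc1 minus that of Hal was 0.96 (pooled SD 0.25) and that of Ftcd minus that of Uroc1 was 0.76 (pooled SD 0.28), with the same exact p of 0.0286 and adjusted p of 0.05. These 4 adjusted values sit at the threshold and not under it. In the same order of subtraction the changes of Hgd and Hpd differed by 0.57 (exact p = 0.0571, adjusted p = 0.08), those of Gstz1 and Hgd by -0.16 (exact p = 0.4, adjusted p = 0.467) and those of Fah and Gstz1 by 0.10 (exact p = 0.714, adjusted p = 0.714).

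The enzymes also moved together between arrays of the same group. Tumour 4 was the lowest tumour for 8 of the 9, all but Tat, where tumour 1 was lowest. Its mean deviation from the tumour means was -0.45, against 0.02 over all genes, and it was the lowest tumour for 24.5% of all genes. Control liver 1 was the lowest control for 9 of 9, with a mean deviation of -0.30, and it was the lowest for 27.0% of all genes. Control liver 4 was the highest control for 7 of 9, and control liver 3 for the other 2, Qdpr and Hal. The share of all genes highest on each array was not computed, so these last counts have no background beside them. Part of this order was shared by related lists. The urea cycle mean was lowest in tumour 4 (8.92, against 9.22 to 9.52 in the other tumours). Among controls it was lowest in control liver 1 (10.18) and highest in control liver 4 (10.49). The tryptophan breakdown mean was lowest in tumour 4 (7.07) and highest in control liver 4 (10.22), but its lowest control was control liver 3 (9.90).

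Tumour 4 also had the lowest hepatocyte marker mean of the tumours, 11.38 against 11.71 to 11.93, and the lowest array weight in limma, 0.43 against 1.09 to 2.23. Its mean over 6 division markers, 9.19, lay within the 8.98 to 9.53 of the other tumours. The interquartile range of tumour 4 was the narrowest of the tumours, 2.09 against 2.28 to 2.42. That of control liver 4 was the widest of the controls, 2.25 against 2.04 to 2.18. Control liver 1, where the acute phase genes were high, had a hepatocyte marker mean of 12.37, inside the 12.23 to 12.47 of the other controls. The part of these in the order of the arrays was not tested. Without tumour 4 or without control liver 1, 7 enzymes were lower, as with all arrays.

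**Figure D3:**
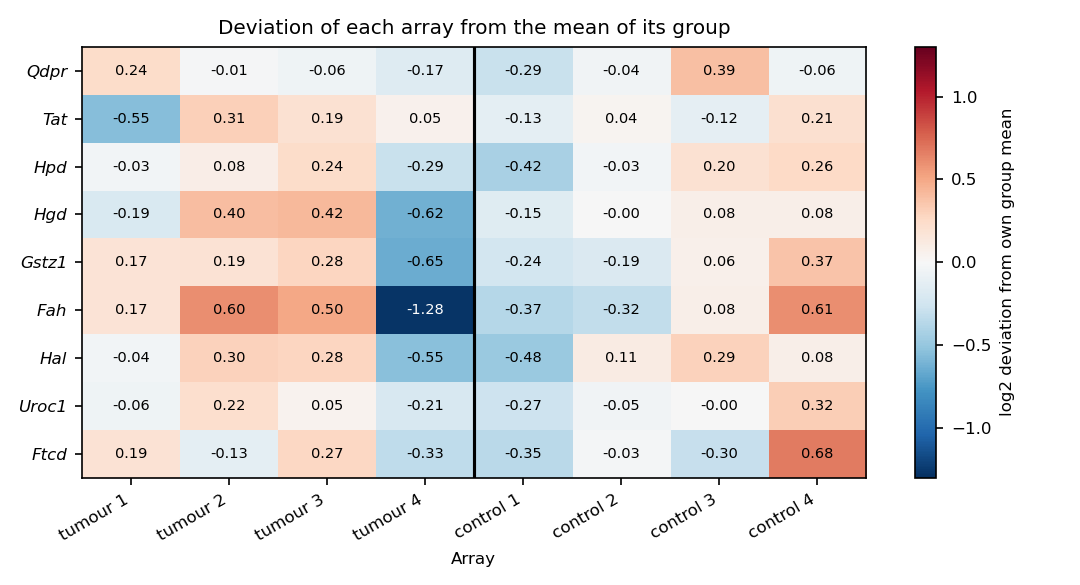
Deviation of each array (columns, tumours left) from the mean of its own group in log2 units (colour and printed value) for the 9 enzymes (rows). Tumour 4 is negative for all but Tat and reaches -1.28 for Fah, and control liver 1 is negative for all 9.

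Genes listed beside the 9, mostly for cofactor supply, transport, folate steps and other uses of these amino acids, split in both directions. They include Amdhd1, a step of the histidine route itself, which was lower. Of 39 listed, 35 were measured, with a median log2 change of -0.05. Of these, 11 were called lower and 9 higher, against 12.7% and 16.2% of all genes. All tumours lay below all controls for 11 of them (13.9% of all genes) and above for 8 (16.3% of all genes). Of 6 measured genes for the supply of tetrahydrobiopterin, 4 were lower. Spr (log2 change -0.32, limma adjusted p = 0.0535) and Pcbd1 (-0.16, limma adjusted p = 0.324) were not called. Gch1, the GTP cyclohydrolase that starts its synthesis, fell to 8.10 ± 0.31 in tumours, against 9.68 ± 0.29 in controls (SD, n = 4 each; log2 change -1.59, SE 0.18, limma adjusted p = 8.0e-05). Pts, which makes the next intermediate, changed by -0.54 (SE 0.10), Pcbd2, a pterin dehydratase that recycles the cofactor, by -0.53 (SE 0.12) and the regulator gene Gchfr by -0.55 (SE 0.16). Gchfr missed the threshold when control liver 2 (adjusted p = 0.0660), tumour 4 (0.0525) or control livers 1 and 3 together (0.0585) were left out.

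Amdhd1, the histidine enzyme between Uroc1 and Ftcd, read 7.43, 7.38, 7.47 and 6.62 in tumours, against 8.67, 8.99, 9.66 and 9.70 in controls. All tumours were below all controls, and tumour 4 and control liver 1 were again the lowest of their groups. Its log2 change was -2.03 (SE 0.26, limma adjusted p = 0.00018), near that of Hal. Among 7 other histidine genes 2 were lower and 1 higher. Hnmt, which methylates histamine, changed by -3.09 (SE 0.21), and Carnmt1, which methylates carnosine, by 0.82 (SE 0.13), though by 0.28 (adjusted p = 0.332) when its probe sets were averaged.

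Among 8 other tyrosine and phenylalanine genes 2 were higher and 2 lower. Maoa, a monoamine oxidase, rose to 9.40 ± 0.15 in tumours, against 7.36 ± 0.12 in controls (SD, n = 4 each; log2 change 2.04, SE 0.11), while its relative Maob fell by 0.76 on the log2 scale (SE 0.16). Mif, a cytokine that tautomerises phenylpyruvates in vitro, rose by 1.83 (SE 0.28), and Th, the tyrosine hydroxylase of catecholamine synthesis, changed by -0.39 (SE 0.09).

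Folate enzymes that stand beside the formimino transfer of Ftcd moved apart. The mitochondrial Mthfd1l and Mthfd2 rose 5.17-fold and 5.13-fold (log2 change 2.37, SE 0.16, and 2.36, SE 0.25), while Aldh1l1, the cytosolic formyltetrahydrofolate dehydrogenase of the hepatocyte, was 11.5-fold lower in the deposited values (log2 change -3.53, SE 0.14, limma adjusted p = 8.1e-08). Its tumour mean of 6.24 ± 0.26, against 9.77 ± 0.17 in controls (SD, n = 4 each), was not tested against background. The other 3 of 6 measured were not called.

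Among 8 transporters of these amino acids, 4 were higher and 2 lower. Slc7a5, the catalytic chain of the large neutral amino acid exchanger, rose to 8.52 ± 0.38 in tumours, against 6.37 ± 0.29 in controls (SD, n = 4 each; log2 change 2.15, SE 0.20, limma adjusted p = 1.8e-05). Slc7a8 and Slc43a1, of similar substrate range, rose by 0.93 (SE 0.17) and 0.82 (SE 0.12). Slc3a2, the partner chain of Slc7a5, rose by 0.55 (SE 0.18, adjusted p = 0.0437), a call lost without any 1 of control livers 1, 2 and 3 or tumours 1, 2 and 3 (adjusted p between 0.0760 and 0.122), without control livers 1 and 3 together (0.177) and with median subtraction (0.0652). Slc38a3, the hepatic importer of glutamine and histidine, fell to 8.66 ± 0.32 in tumours, against 10.73 ± 0.32 in controls (SD, n = 4 each; log2 change -2.06, SE 0.19). Slc16a10, which carries aromatic amino acids, changed by -0.43 (SE 0.13). Slc16a10 missed the threshold on leaving out any 1 of tumours 2 and 4 and control livers 3 and 4 (adjusted p of 0.0556 to 0.0762), or control livers 1 and 3 together (0.121).

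**Figure D4:**
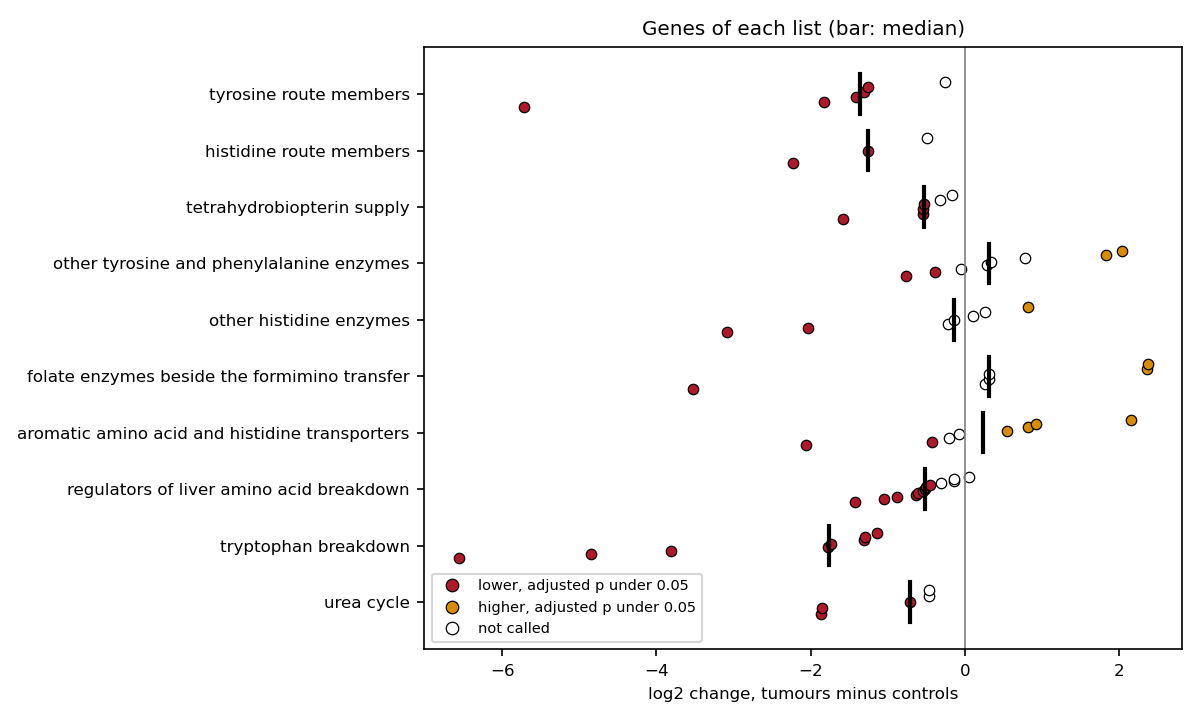
Log2 change (horizontal axis, tumours minus controls) of every measured gene in 10 lists, coloured by call, with the list median as a bar. The enzymes described here sit at or below -0.26, tryptophan breakdown genes at or below -1.14, and the transporters and folate enzymes lie on both sides of 0.

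Of 13 measured genes that encode known regulators of liver amino acid breakdown, 9 were lower and 4 were not called, with a median log2 change of -0.52. Ppara, the fasting-responsive receptor, changed by -1.05 (SE 0.17), Cebpa, a factor of the mature hepatocyte, by -0.88 (SE 0.16) and the pioneer factor gene Foxa1 by -0.63 (SE 0.14). Ppargc1a, a coactivator induced in fasting, changed by -1.42 (SE 0.44, adjusted p = 0.0334), a call lost without any 1 of control livers 1, 2 and 3 or tumours 1 and 4 (adjusted p between 0.0759 and 0.0958), without control livers 1 and 3 together (0.246, change -0.97) and with an intensity trend and robust variance (0.0683). The glucocorticoid receptor gene Nr3c1, a known inducer of Tat that lies outside the rule for named genes and was picked after its value was seen, changed by -0.50 (SE 0.14, adjusted p = 0.0212). The part of any regulator in the changes of the enzymes was not tested.

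Beside the 7 of 9 lower here, tryptophan breakdown had 8 of 8 lower with a median log2 change of -1.76, and the urea cycle had 3 of 5 lower with a median of -0.71. A lower call was made for 12.7% of all genes. The differences between these lists were not tested. Tdo2, the entry enzyme of tryptophan breakdown, changed by -6.56 (SE 0.26), Aadat by -4.84 (SE 0.33), Kmo by -3.82 (SE 0.25) and Ido2 by -1.77 (SE 0.19). In the urea cycle Otc changed by -1.87 (SE 0.14), Arg1 by -1.85 (SE 0.21) and Cps1 by -0.71 (SE 0.20). Cps1 missed the threshold when control liver 2 (adjusted p = 0.0659), tumour 4 (0.0609) or control livers 1 and 3 together (0.0731) were left out.

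Most measured markers of both lobule zones were lower, a call made for 12.7% of all genes. Among 5 measured periportal markers 4 were lower, with Pigr, the immunoglobulin receptor of transcytosis, at -5.36 (SE 0.22), Cyp2f2 at -4.81 (SE 0.31), Pck1 at -3.27 (SE 0.42) and Hsd17b13 at -0.68 (SE 0.23). The Hsd17b13 call, with an adjusted p of 0.0475, was lost in 10 of 16 alternatives. The cadherin gene Cdh1 of the same list rose by 2.12 (SE 0.25). Among 8 pericentral markers 6 were lower, with Cyp2e1 at -6.38 (SE 0.26), Cyp1a2 at -6.10 (SE 0.24), Slc1a2 at -3.03 (SE 0.10) and Lgr5 at -1.40 (SE 0.15).

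Genes with predicted, clone or accession-type symbols were left out of the searches in this paragraph. Of the genes kept, those whose values followed the mean of the 9 enzymes most closely over the 8 arrays were Pxmp2, Lonp2, Abcc2, Cat and Adipor2. Their root mean square differences were 0.11 to 0.14 log2 units after each gene was centred on its own mean. Pxmp2, Lonp2 and Cat encode a peroxisomal membrane protein, the peroxisomal Lon protease and catalase, Abcc2 a canalicular export pump and Adipor2 an adiponectin receptor. Their log2 changes lay between -1.88 and -1.69. The median change of the 9 enzymes was smaller, -1.31, since Tat (-5.71) draws their mean down. By the same measure the gene nearest to Tat was Apon (0.25), nearest to Hpd Plxnc1 (0.12), nearest to Hgd the bile acid importer gene Slc10a1 (0.14), nearest to Gstz1 Fuca1 (0.11) and nearest to Fah the glucokinase regulator gene Gckr (0.23). Hal lay nearest to the elongase gene Elovl5 (0.19), Uroc1 to Vegfa (0.080), Qdpr to Isoc1 (0.086) and Ftcd to Grcc10 (0.10). No member was the nearest neighbour of another.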

How the data were processed

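Total RNA was labelled with biotin and hybridised in 1 colour to mouse gene arrays, 1 per sample. The deposited table holds log2 values that the authors made with RMA in R 3.0.2, per the submitters' processing notes; the sources used here name no settings, summarisation level or genome build, and coordinates are given for promoter windows only. RMA evens out array-wide shifts and flattens differences near background.

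Of 34760 probe sets, 21640 had 1 gene symbol in the platform's annotation, updated through 21553 gene identifiers matched to RefSeq; the probe set with the highest mean was kept for each of 19937 genes. Tumours were compared with controls by limma 3.58.1 run in R 4.3.3 (lmFit, then eBayes; 1 term, the group), Benjamini-Hochberg adjustment over all genes and a threshold of 0.05. The fit was tested on simulated data. Log2 changes are tumours minus controls, with SE from limma. Which mouse gave which sample is not in the labels; p-values therefore reflect the spread among these samples, which may be technical. Arrays give no counts, and their number limits the precision.

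Members, lists and motifs were chosen with earlier results of these data known. Named beyond the members were, per list, up to 4 genes with the largest called change in the more frequent direction and up to 2 in the other, and the nearest genes in pattern. Some genes not called were named beside the counts. Of 143 list entries, 13 had no probe set with that symbol alone and were not used here. Promoters came from RefSeq on GRCm38.p6. Python 3.11.15, pandas 2.3.3 and matplotlib 3.10.9 were used for tables and plots.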

Additional observations from a re-analysis of the deposited data

Results flagged for a closer look

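Among 98 groups of 4 arrays, 7 held an array that stood off from the other 3 by more than Dixon's 95% critical value for the gap over the range, and chance gives about 1 in 20. Of the 18 groups of the enzymes, 1 did: Gstz1 read 8.56 in tumour 4, against 9.38 to 9.49 in the other tumours. Amdhd1, of the same histidine route as Hal and Uroc1, read 6.62 in tumour 4 and 7.38 to 7.47 in the others. Gch1 read 7.63 in tumour 1 and 8.23 to 8.26 in the others. Maoa read 7.53 in control liver 3 (7.28 to 7.31 in the others) and Carnmt1 8.18 in control liver 4 (8.65 to 8.68). In control liver 2, Cps1 read 12.61 (12.34 to 12.36 in the others) and Lgr5 6.53 (6.96 to 6.998).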

How the results depend on the processing

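Alternatives were quantile normalisation, subtraction of array medians, dropping the dimmest 33.3% of genes, array weights, robust variance with an intensity trend, averaging each gene's probe sets, a block for the sample number, and leaving out each array in turn; leaving out control livers 1 and 3 together was added after seeing the data. The calls of Tat, Hpd, Hgd, Gstz1, Hal and Uroc1 held in all 16, and Qdpr was called in none. Fah lost its call in 5 and Ftcd gained one in 1. The count of lower enzymes was 7 or 6 throughout; without control livers 1 and 3 together it was 7, with Ftcd in place of Fah.

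Same-numbered tumours and controls did not deviate together (correlations over genes of -0.06, 0.00, 0.05 and -0.32), so the numbers were not taken to pair samples. With the replicate block 6 enzymes were lower, Fah having an adjusted p of 0.0589, and 5007 genes were called in place of 5757. Of the other called genes picked by the rule for named genes, Slc3a2 (adjusted p = 0.0873) and Hsd17b13 (0.0798) also missed the threshold with the block. Leaving out single arrays, the change of Fah minus that of Gstz1 ran from -0.034 to 0.31, negative only without tumour 2; the directions of the other 6 pairs held. The cause was not tested.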
